A study of Homo sapiens with 4 samples.

Results

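The genes described here are 9 transcripts known for their part in pluripotent cells or as abundant nuclear RNAs, namely MIR302CHG, ESRG, LINC00678, TUNAR, LNCPRESS1, LINC00458, LINC-ROR, MALAT1 and NEAT1. They were chosen by name, and all 9 were found among the 60671 genes of the expression table. RNA was measured in 4 poly(A)+ RNA-seq libraries of H9, an established human embryonic stem cell (hESC) line. The comparison asks whether these transcripts stand at control level once CFIm25 is put back into edited cells. CFIm25, encoded by NUDT21, is a subunit of the cleavage factor that helps choose poly(A) sites.

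The controls were 2 libraries of H9 cells whose genotype is given as control. They were set against 2 libraries of H9 cells labelled as a CFIm25 knockout with 3Flag-CFIm25 overexpression, called KO+OE here. The study describes the edited cells that received the lentiviral 3Flag-CFIm25 as 1 clone, whose own CFIm25 was reduced and shortened at its N-terminus and not absent. Both groups grew in mTeSR medium with no treatment. The study also describes puromycin selection and single-cell cloning of edited cells, and a lentiviral vector for the added protein. Whether the controls went through like steps is not given in the labels. Edited cells without the re-expressed protein were not analysed here. The effects of the edit, of the added protein and of these steps therefore cannot be told apart. Nothing in the labels says that the replicates came from separate cultures, so p-values measure only the spread between these libraries, which may be technical.

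Long noncoding RNAs are transcribed by RNA polymerase II, mostly spliced and polyadenylated, and many are made in a single cell type. In hESCs, OCT4, SOX2 and NANOG bind near several such genes, and their transcripts fall away when the cells differentiate. MIR302CHG is the host transcript of the miR-302 cluster, whose miRNAs shorten G1 and help to keep cells pluripotent. ESRG and LINC00678 are used as markers of undifferentiated cells, TUNAR has been tied to neural differentiation and to pluripotency, and LNCPRESS1 is a p53-repressed transcript that binds the deacetylase SIRT6. LINC00458 has been linked to endoderm formation and was itself followed in the study, and LINC-ROR was named for its part in reprogramming. MALAT1 and NEAT1 are found in most cell types and stay in the nucleus. MALAT1 gathers at nuclear speckles, and the long form of NEAT1 builds paraspeckles.

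The product for which MIR302CHG is best known is its miRNAs, shown here because their shared seed groups them. The sequences are the mature 3p forms from RefSeq on GRCh38.p14, written 5′ to 3′ with the seed, bases 2 to 8, in capitals.
hsa-miR-302a-3p: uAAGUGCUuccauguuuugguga
hsa-miR-302b-3p: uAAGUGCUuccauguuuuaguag
hsa-miR-302c-3p: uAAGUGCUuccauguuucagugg
hsa-miR-302d-3p: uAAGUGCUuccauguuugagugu
hsa-miR-367-3p: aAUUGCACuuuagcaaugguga
The 4 miR-302 sequences shared the seed AAGUGCU, which 12 of the 2545 mature human miRNAs in the RefSeq table carried. The seed of miR-367-3p was AUUGCAC, found in 7 of the 2545. All 5 lie on the minus strand of chromosome 4 within MIR302CHG, from miR-302b at chr4:112648489-112648511 to miR-367 at chr4:112647877-112647898.

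The window around the annotated start of MIR302CHG is shown because OCT4, the factor of pluripotent cells, binds the octamer motif. It runs from 250 bases before to 50 bases after the start, at chr4:112650002-112650301 on the minus strand (RefSeq, GRCh38.p14). Capitals mark the octamer ATGCAAAT.
MIR302CHG promoter: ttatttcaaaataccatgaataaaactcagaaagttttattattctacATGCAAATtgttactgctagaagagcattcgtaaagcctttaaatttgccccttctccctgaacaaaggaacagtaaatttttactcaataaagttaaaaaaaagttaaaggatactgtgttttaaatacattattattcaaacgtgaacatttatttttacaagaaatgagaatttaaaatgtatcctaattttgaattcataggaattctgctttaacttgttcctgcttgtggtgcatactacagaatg
The octamer stood at positions 49 to 56 of the window. On either strand it was present in 623 of 35116 promoter windows of this length, or 1.77%. Windows were given for 4 of the 9 genes, 7 in all, of which 2 belonged to MIR302CHG and the others to LNCPRESS1, TUNAR and MALAT1. Of these 7 windows 1 held the octamer, the one printed. A match describes letters in this window and not a bound site.

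The study followed LINC00458 by RT-qPCR, and its primers are shown because they define which LINC00458 RNA such a measurement can see. Both are printed 5′ to 3′.
LINC00458-F1: gtgccatgactcggatcggg
LINC00458-R1: ctgggagtggctgccagatg
Among the 16 LINC00458 transcripts of GENCODE 44, the forward primer matched 10 and both primers matched 4, with 191 bases between and including them. The forward primer had 43 exact matches in the GRCh37 genome and the reverse primer 3. The genome was searched on both strands, and transcripts only in the orientation of the LINC00458 product. In that orientation transcripts of 3 other genes held the forward primer and transcripts of 0 other genes held the reverse primer. One of those 3, LINC01013, was listed at 0 TPM in all 4 libraries.

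Levels were read as TPM, as no unit was named. This unit divides the reads of a gene by its transcript length and scales every library to a common total. The table holds no read counts, so the depth is unknown and no counting error could be given. NUDT21 stood at 160.67 and 152.20 TPM in the controls, against 162.09 and 156.60 TPM in the KO+OE libraries, in which own and added transcripts cannot be told apart. All 9 protein-coding markers of undifferentiated hESCs were present, with a summed level of 3122.73 to 3131.05 TPM in controls, against 3100.99 to 3123.79 TPM in KO+OE. The sum was carried mostly by POU5F1, at 2163.82 to 2212.38 TPM over the 4 libraries. Of the 9 markers 0 passed an unadjusted p of 0.05, as 5.33% of all genes tested did. Of 15 germ layer markers, 12 had a mean under 1 TPM, none of these above 0.87 TPM in any library, and SOX17 was listed at 0 in all 4. Their sum was 96.08 to 97.27 TPM in controls, against 92.93 to 95.42 TPM in KO+OE, carried mostly by NES, and 1 of the 3 tested passed an unadjusted p of 0.05, OTX2, beside 5.33% of all genes tested. Its log2 fold change was -0.27 (limma, adjusted p = 0.928). The fibroblast markers LUM, DCN and COL3A1 did not exceed 0.08 TPM, while THY1, which hESCs also express, and COL1A1 were high, and the 6 fibroblast markers summed to 1296.62 to 1420.25 TPM in controls, against 1360.17 to 1411.76 TPM in KO+OE. In bulk RNA, fewer cells of a type and less RNA per cell cannot be told apart. Genes with at least 1 TPM numbered 12179 to 12332 per library, and mitochondrial genes took 21.0% and 21.1% of the controls, against 21.6% and 22.1% of KO+OE, so that both KO+OE libraries lay above both controls.

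The 9 genes spanned more than 3 powers of 10 in level. The sum over them was 670.78 and 626.84 TPM in controls, against 699.59 and 620.00 TPM in KO+OE, and MIR302CHG alone made up between 52.0% and 58.1% of it. On this per-length scale the means over the 4 libraries ran from MIR302CHG through ESRG, LINC00678, TUNAR, LNCPRESS1, MALAT1, LINC00458 and NEAT1 to LINC-ROR. The ranges over the 4 libraries of neighbours in this order did not overlap, with 1 exception, MALAT1 and LINC00458. The widest steps were 15.7-fold between NEAT1 and LINC-ROR, 4.38-fold between LINC00678 and TUNAR, and 3.31-fold between LINC00458 and NEAT1. Thus 5 of the 7 stem cell transcripts stood above both ubiquitous nuclear RNAs in this table. The mature MALAT1 and the long NEAT1 lack a poly(A) tail, so this order describes the poly(A)+ RNA and not the cell.

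**Figure D1:**
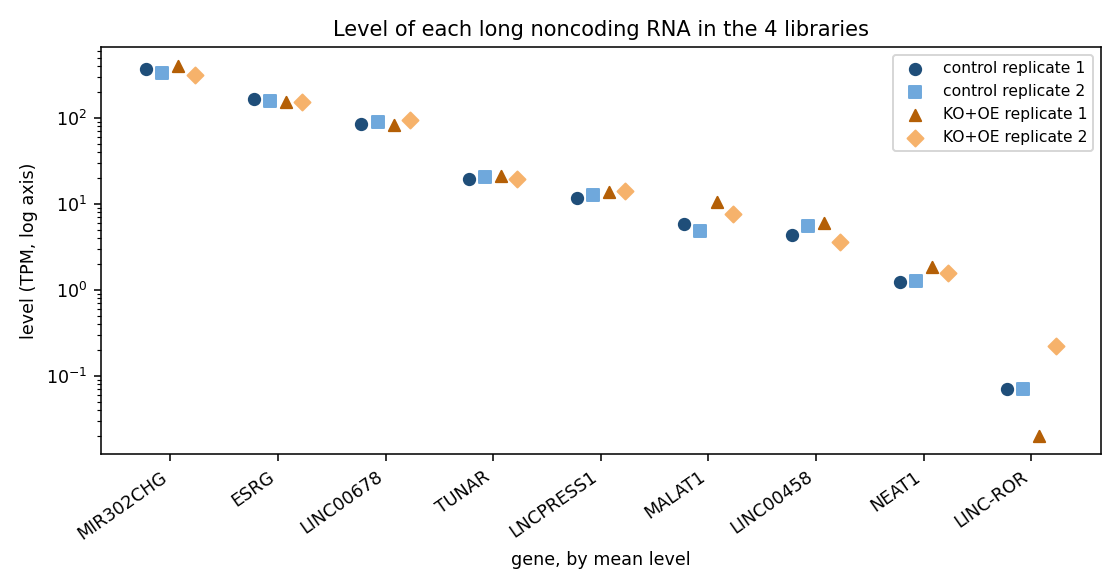
Level of each of the 9 genes in TPM on a log axis, with 1 point per library (blue, control; orange, KO+OE) and genes ordered by mean. MIR302CHG lies between 322.31 and 406.25 TPM and LINC-ROR between 0.02 and 0.22 TPM, and the orange points lie above both blue points for MALAT1, NEAT1 and LNCPRESS1.

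To ask whether any of the 9 differed between KO+OE and control cells, the groups were compared with limma on log2(TPM + 1) over the 12319 genes whose mean reached 1 TPM. Of the 9 genes 8 were tested, and LINC-ROR, with a mean of 0.095 TPM, was not. None of the 8 passed a Benjamini-Hochberg adjusted p of 0.05, beside 0.00812% of all genes tested, which was 1 gene. At an unadjusted p of 0.05, 1 of 8 passed, MALAT1, beside 5.33% of all genes tested, and 0 of 8 did so with a difference over 2-fold, beside 0.43%. The groups did not overlap for 4 of the 8, with KO+OE above control for 3 (MALAT1, NEAT1 and LNCPRESS1) and below it for 1 (ESRG). Of all genes tested this held for 34.1%, with 14.5% above and 19.6% below. The median log2 fold change of KO+OE over control was 0.03 for the 8, of which 5 were higher and 3 lower, and -0.01 for all genes tested. The median was 0.17 when KO+OE replicate 2 was left out.

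Among the 943 tested genes that GENCODE types as lncRNA, 451 were higher and 492 lower in KO+OE, with a median log2 fold change of -0.01. Of these genes 7.74% passed an unadjusted p of 0.05 and 0.0% an adjusted p of 0.05, and the groups did not overlap for 34.6%. TUNAR is not among them, as GENCODE and RefSeq both type it as protein-coding.

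**Figure D2:**
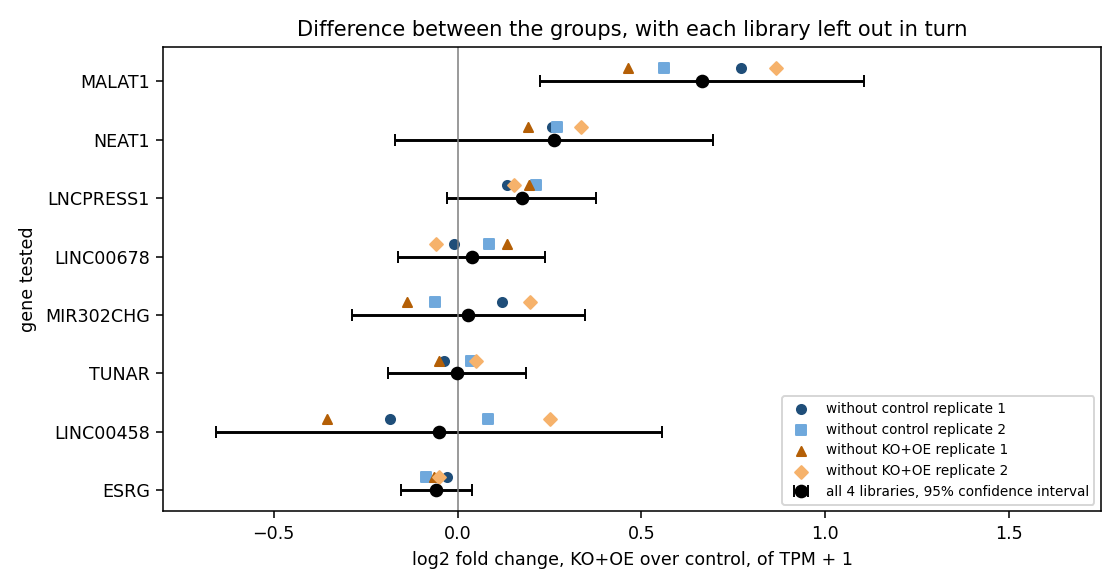
Log2 fold change of TPM + 1, KO+OE over control, for the 8 genes tested. Black points and bars are the estimate from all 4 libraries with its 95% confidence interval, and coloured points are the estimates with 1 library left out. The MALAT1 interval, from 0.22 to 1.11, is the only one that does not include 0, and the coloured points of LINC00458, MIR302CHG, LINC00678 and TUNAR lie on both sides of 0.

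MIR302CHG (ENSG00000249532, chr4:112646720-112650051, GRCh38), the host transcript of the miR-302 cluster, was the most abundant of the 9 and ranked 4 of the 6414 lncRNA genes with a value above 0. Its level was 377.95 and 332.57 TPM in the controls, against 406.25 and 322.31 TPM in the KO+OE libraries. The highest and the lowest value were both KO+OE libraries, so the groups overlapped. The means were 355 ± 32.1 TPM in controls, against 364 ± 59.4 TPM with KO+OE (SD, n = 2). On the log2 scale the fold change was 0.03 with a 95% confidence interval from -0.29 to 0.35, a range of 0.819-fold to 1.27-fold, and the adjusted p was 0.990. The KO+OE replicates differed by 0.33 on the log2 scale, more than in 99.1% of the 1976 genes over 50 TPM. The control replicates differed by 0.18, more than in 95.5% of those genes. Without control replicate 2 the log2 fold change turned to -0.06, and without KO+OE replicate 1 to -0.14.

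MIR302CHG lies inside LARP7 on the opposite strand. LARP7, which binds the small nuclear RNA 7SK, stood at 4.39 and 4.77 TPM in controls, against 4.66 and 4.08 TPM in KO+OE, with overlapping groups and a log2 fold change of -0.06 (limma, adjusted p = 0.988). Whether reads were assigned by strand is not given in the sources used here. The rows for MIR302A, MIR302B, MIR302C, MIR302D and MIR367 were listed at 0 in all 4 libraries, so the miRNAs printed above were not measured by this table.

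ESRG (ENSG00000265992, chr3:54632124-54639857), a marker of undifferentiated cells that overlaps an endogenous retrovirus, ranked 16 among the lncRNA genes. Its level was 164.93 and 158.42 TPM in controls, against 155.96 and 154.57 TPM in KO+OE. Both KO+OE values lay below both control values. The means were 162 ± 4.6 TPM and 155 ± 0.983 TPM (SD, n = 2). Their log2 fold change was -0.06 with an interval from -0.15 to 0.04 (limma, adjusted p = 0.938). MCM2, the replicative helicase subunit with which ESRG has been reported to interact, stood at 73.08 to 73.65 TPM in controls, against 71.20 to 71.91 TPM in KO+OE, with a log2 fold change of -0.04 (limma, adjusted p = 0.965).

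ESRG lies inside CACNA2D3 on the opposite strand, whose level was 0.18 to 0.65 TPM. ESRG also held the most repeated sequence of the 9. Of the 31-base stretches of its GENCODE transcript, 59.8% occurred at several places of the GRCh37 genome, and 43.2% at more than 10. Of its 100-base stretches 16.0% occurred at several places, and reads were 150 bases from each end. For the other 8 genes the share of 31-base stretches ran from 2.36% in MALAT1 to 27.0% in LINC00678, and for LINC00458 it was 12.0%. Of 9 protein-coding markers NANOG, TDGF1 and POU5F1, which have processed pseudogenes, were nearest to ESRG, at 56.1%, 52.1% and 49.1%. How reads with several matches were counted is not given in the sources used here, so the levels of ESRG and of these 3 markers are uncertain by an amount that was not tested.

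**Figure D3:**
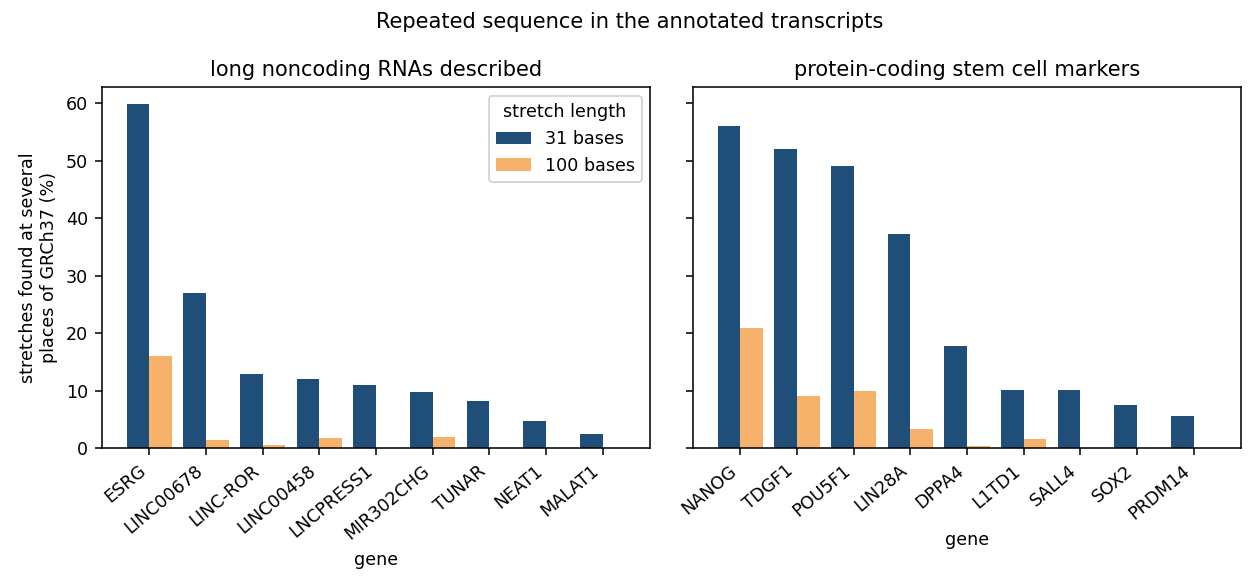
Share of the 31-base (blue) and 100-base (orange) stretches of each gene's GENCODE transcripts that occur at several places of GRCh37, in percent, for the 9 genes (left) and 9 protein-coding markers (right). ESRG stands at 59.8% for 31 bases and 16.0% for 100 bases, and MALAT1 and NEAT1 are the lowest of the left panel at 2.36% and 4.74% for 31 bases.

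LINC00678 (ENSG00000254934, chr11:27617626-27634627), a transcript of undifferentiated hESCs beside BDNF, ranked 27 among the lncRNA genes. Its level was 84.69 and 90.64 TPM in controls, against 84.12 and 96.23 TPM in KO+OE. As with MIR302CHG, the KO+OE libraries held both the highest and the lowest value, but here replicate 2 was the higher one. The log2 fold change was 0.04 with an interval from -0.16 to 0.24 (limma, adjusted p = 0.988). It turned to -0.01 without control replicate 1 and to -0.06 without KO+OE replicate 2. BDNF-AS, inside which LINC00678 lies on the opposite strand, was at 0.06 to 0.16 TPM.

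TUNAR (ENSG00000250366, chr14:95876448-95925571), a conserved transcript that also encodes a micropeptide, was at 19.77 and 20.85 TPM in controls, against 21.04 and 19.55 TPM in KO+OE. The KO+OE values stood just outside the control values on both sides. The means were 20.3 ± 0.764 TPM and 20.3 ± 1.05 TPM (SD, n = 2), and the difference was -0.0014 on the log2 scale, with an interval from -0.19 to 0.19 (limma, adjusted p = 0.997). Its sign changed with median-ratio rescaling, to 0.01, and with quantile normalization, to 0.02, and also without control replicate 2 or without KO+OE replicate 2.

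TUNAR has been described in complex with the RNA-binding proteins PTBP1, HNRNPK and NCL. NCL, nucleolin, was at 51.43 and 52.73 TPM in controls, against 56.52 and 57.81 TPM in KO+OE. It showed no overlap between the groups, as did 34.1% of all genes tested. Its log2 fold change was 0.13 with an interval from 0.01 to 0.25, and it passed an unadjusted p of 0.05 but not an adjusted one (limma, unadjusted p = 0.0368, adjusted p = 0.928). With any 1 of the 4 libraries left out it no longer passed an unadjusted p of 0.05. PTBP1, a splicing repressor, had a log2 fold change of -0.03, with both KO+OE values below both control values. HNRNPK, a poly(C)-binding protein, had one of 0.02, and its groups overlapped.

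LNCPRESS1 (ENSG00000232301, chr7:101299613-101301346) was at 11.90 and 12.62 TPM in controls, against 13.74 and 14.17 TPM in KO+OE. Both KO+OE values lay above both control values. The means were 12.3 ± 0.509 TPM and 14.0 ± 0.304 TPM (SD, n = 2), a ratio of 1.14. This gave a log2 fold change of 0.17 with an interval from -0.03 to 0.38, which did not pass the test (limma, unadjusted p = 0.0774, adjusted p = 0.931). With 1 library left out in turn it stayed between 0.13 and 0.21. SIRT6, the histone deacetylase that LNCPRESS1 has been reported to keep from chromatin, was at 16.35 to 17.03 TPM in controls, against 16.21 to 16.51 TPM in KO+OE, with a log2 fold change of -0.03 (limma, adjusted p = 0.988).

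LINC00458 (ENSG00000234787, chr13:54124324-54132871), the transcript followed in the study, was at 4.42 and 5.52 TPM in controls, against 6.08 and 3.65 TPM in KO+OE. The KO+OE replicates held the highest and the lowest value, and both control values lay between them. They differed by 0.61 on the log2 scale, more than in 90.4% of the 4923 genes between 1 and 5 TPM, whereas the control replicates differed by 0.27, more than in 63.2%. A log2 fold change of -0.05 was found, with an interval from -0.66 to 0.55 (limma, adjusted p = 0.990). In folds of TPM + 1 the interval ran from 0.634 to 1.47, so it held differences in either direction. The smallest difference that these libraries could detect was not computed. The estimate turned to 0.08 on the log2 scale without control replicate 2 and to 0.25 without KO+OE replicate 2. SMAD2 and SMAD3, signal transducers of the Nodal pathway with which LINC00458 has been reported to interact, had log2 fold changes of 0.02 and -0.07, and the groups overlapped for both.

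LINC-ROR (ENSG00000258609, chr18:57054559-57072119) was at 0.07 TPM in both controls, against 0.02 and 0.22 TPM in the KO+OE libraries. The level was low in all 4, with the highest and the lowest value both in KO+OE. When genes of all levels were fitted, its log2 fold change was 0.06 with an interval from -0.23 to 0.35 (limma, adjusted p = 0.919).

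Of the 7 stem cell transcripts as a group, 6 were tested, 3 higher and 3 lower in KO+OE, with log2 fold changes from -0.06 to 0.17 and a median of 0.01. Their summed level was 663.73 and 620.69 TPM in controls, against 687.21 and 610.70 TPM in KO+OE. The lowest unadjusted p of the 6 was that of LNCPRESS1.

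MALAT1 (ENSG00000251562, chr11:65497738-65506516) had the largest log2 fold change of the 8. Its level was 5.80 and 4.88 TPM in controls, against 10.53 and 7.72 TPM in KO+OE. Both KO+OE values lay above both control values, with ratios of single libraries from 1.33 to 2.16. The means were 5.34 ± 0.651 TPM and 9.12 ± 1.99 TPM (SD, n = 2), a ratio of 1.71. The log2 fold change was 0.67 with a standard error of 0.17 and an interval from 0.22 to 1.11. It passed an unadjusted p of 0.05 but not an adjusted one (limma, unadjusted p = 0.0117, adjusted p = 0.928), and ranked 128 of 12319 by p. By log2 fold change it ranked 146 from the top, above 98.8% of genes. The difference was 0.44 with a pseudocount of 5 and 0.75 with one of 0.1, and leaving out KO+OE replicate 1 gave 0.46, leaving out KO+OE replicate 2 gave 0.87. Without KO+OE replicate 1, and likewise without control replicate 2, it no longer passed an unadjusted p of 0.05. TALAM1, which lies within MALAT1 on the opposite strand, was not analysed here, and without a known strand setting its reads and those of MALAT1 cannot be told apart. The KO+OE replicates of MALAT1 differed by 0.40 on the log2 scale, more than in 94.2% of the 5417 genes between 5 and 50 TPM.

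NEAT1 (ENSG00000245532, chr11:65422798-65445540) is a neighbour of MALAT1 on chromosome 11. Its level was 1.25 and 1.27 TPM in controls, against 1.85 and 1.58 TPM in KO+OE. Again both KO+OE values lay above both control values, with replicate 1 the higher. The means were 1.26 ± 0.0141 TPM and 1.72 ± 0.191 TPM (SD, n = 2), a ratio of 1.36. On the log2 scale the difference was 0.26 with an interval from -0.17 to 0.69, and it did not pass the test (limma, unadjusted p = 0.179, adjusted p = 0.938). The value depended on the pseudocount, at 0.41 with a pseudocount of 0.1 and 0.10 with one of 5. Its unadjusted p was 0.0363 without the mean-dependent prior of the fit, and 0.162 to 0.233 under the other settings that kept all 4 libraries. The table has 1 value per gene, so the short polyadenylated form of NEAT1 and the long form of paraspeckles were not told apart.

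The summed level of MALAT1 and NEAT1 was 7.05 and 6.15 TPM in controls, against 12.38 and 9.30 TPM in KO+OE, carried mostly by MALAT1. The mature MALAT1 and the long NEAT1 end in a triple helix and not in a poly(A) tail, and the libraries were made from poly(A)+ RNA, so these are levels in the selected RNA and not in the cell. Whether the selection worked alike in the 4 libraries was not tested. The mitochondrial share, like MALAT1 and NEAT1, was higher in both KO+OE libraries than in both controls, and its part in these values was not tested. MALAT1 and NEAT1 have an AT-rich sequence, with GC contents of 42.0% and 44.1% in their longest GENCODE transcripts. Of the 9 genes MIR302CHG and LINC00458 had lower ones, 35.3% and 38.3%. Over the tested genes of 40% to 45% GC the median log2 fold change of KO+OE over control was 0.0005, and the median difference between KO+OE replicate 1 and replicate 2 was 0.04. The part of GC content in the values of single genes was not tested.

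**Figure D4:**
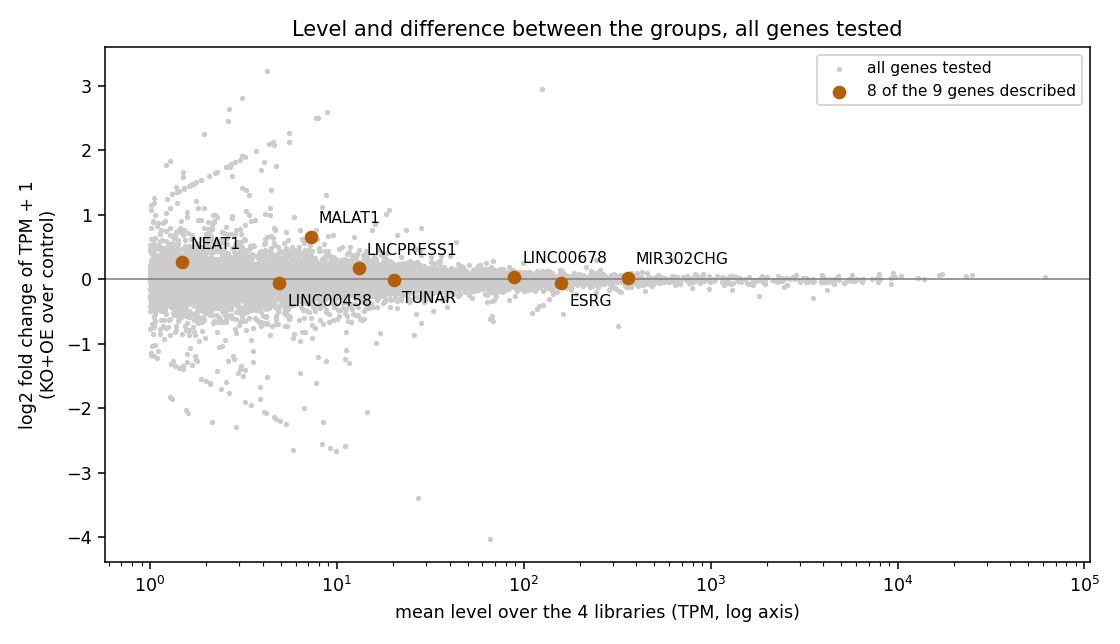
Log2 fold change of TPM + 1, KO+OE over control, against the mean level over the 4 libraries in TPM on a log axis, for all 12319 genes tested (grey) and the 8 tested genes described here (orange). MALAT1 stands at 0.67, and the other 7 lie between -0.06 and 0.26.

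Genes that act on or with these RNAs were then read from the same fit, in lists by function. RNase P and RNase Z cut the 3′ end of MALAT1, and of 9 RNase P subunits and ELAC2, an RNase Z, 7 were higher and 3 lower in KO+OE, with a median log2 fold change of 0.05. Of these 10 genes 0 passed an adjusted p of 0.05 and 1 passed an unadjusted one, beside 5.33% of all genes tested. It was POP4, a subunit of RNase P and RNase MRP, at 12.54 and 15.26 TPM in controls, against 20.95 and 17.84 TPM in KO+OE. POP4 showed no overlap between the groups, as did 34.1% of all genes tested. Its log2 fold change was 0.45 with an interval from 0.13 to 0.78 (limma, unadjusted p = 0.0162, adjusted p = 0.928). It no longer passed the unadjusted threshold without control replicate 1 or without KO+OE replicate 1. ELAC2 was at 58.22 and 60.92 TPM in controls, against 59.05 and 63.17 TPM in KO+OE, which overlapped.

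The paraspeckle list held 9 proteins that bind NEAT1 or lie in paraspeckles, of which 5 were higher and 4 lower, with log2 fold changes from -0.10 to 0.19 and a median of 0.02. NUDT21, the gene edited and put back, was counted among the 5, at 0.03, and its own and added transcripts cannot be told apart. None of the 9 passed an adjusted p of 0.05, and 1 passed an unadjusted one, beside 5.33% of all genes tested. The 1 gene was CPSF6, the partner of CFIm25 in the cleavage factor and also a paraspeckle protein. It was at 20.82 and 22.22 TPM in controls, against 24.62 TPM in both KO+OE libraries. Its log2 fold change was 0.19 (limma, unadjusted p = 0.0359, adjusted p = 0.928). It did not pass without control replicate 1 or without either KO+OE replicate. The core proteins NONO, SFPQ and PSPC1 had log2 fold changes of 0.02, 0.07 and -0.09, and the first of them stood at 266.08 to 286.47 TPM in controls, against 277.52 to 283.33 TPM in KO+OE. For the 7 partner proteins of the stem cell transcripts the median was -0.03 (3 higher, 4 lower). Of the 7, 1 (NCL) had an unadjusted p under 0.05, beside 5.33% of all genes tested. The groups did not overlap for NCL, above control, and for PTBP1 and MCM2, below it, beside 34.1% of all genes tested.

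A list of 16 further long noncoding RNAs served to show where others stood. Of these 15 were in the table, 10 were tested, and 5 were higher and 5 lower, with a median log2 fold change of 0.01. Of the 10, 0 passed an adjusted p of 0.05 and 1, CYTOR, an unadjusted one, beside 5.33% of all genes tested. CYTOR, an RNA linked to cell growth, was at 21.88 and 24.67 TPM in controls, against 28.23 and 27.57 TPM in KO+OE, with a log2 fold change of 0.25 (limma, unadjusted p = 0.0227, adjusted p = 0.928). Without control replicate 1 or without either KO+OE replicate it did not pass the unadjusted threshold. The snoRNA host gene GAS5 was higher than MIR302CHG, at 435.12 to 440.47 TPM in controls, against 407.45 to 435.66 TPM in KO+OE. DANCR, known for holding back differentiation, was at 169.49 to 195.29 TPM in controls, against 171.25 to 172.26 TPM in KO+OE. HOTAIRM1, EVX1-AS and LINC00261, known from differentiating cells, were listed at 0 in all 4 libraries. Others of the list were low but present, with RMST at 0.99 to 1.58 TPM, SOX2-OT at 0.07 to 0.45 TPM and LINC01108 at 0.27 to 0.48 TPM.

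**Figure D5:**
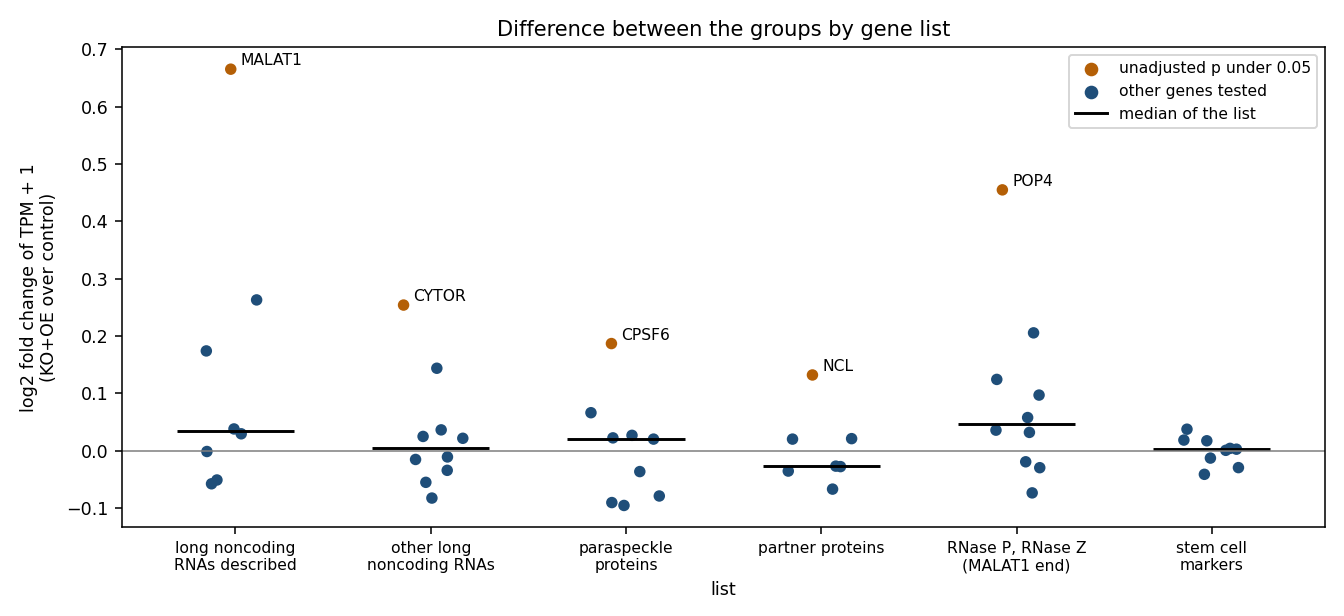
Log2 fold change of TPM + 1, KO+OE over control, for the tested genes of 6 lists, with 1 point per gene and a bar at each list's median. The list medians lie between -0.03 and 0.05, and orange marks the 5 genes with an unadjusted p under 0.05, of which MALAT1 is the highest at 0.67.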

How the data were processed

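The data are poly(A)+ RNA-seq of 4 H9 libraries, grouped by the sample titles. Per the labels, RNA was extracted with Trizol, fragmented and sequenced as 150-base read pairs, and the submitters' processing notes name HISAT2, featureCounts of Subread, DESeq2 and the build hg38. Versions, annotation, strand setting and the handling of reads with several matches are not given in the sources used here. The authors deposited 1 table with 1 column per library. Its values were read as TPM, since each deposited column holds decimals and sums to between 986853 and 987078, and no counts were given. The depth is therefore unknown, and DESeq2 on counts was not repeated.

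Genes whose mean reached 1 TPM were fitted with limma 3.58.1 in R 4.3.3 on log2(TPM + 1), which understates the change of low genes, with a mean-dependent prior and no term besides group. Tests were two-sided and adjusted by Benjamini-Hochberg over 12319 genes. The script was tested on simulated data. Tables were handled in Python 3.11.15. The genes and lists were chosen with earlier results of these data known, and all 9 genes are named together with the listed genes. Of the lists only genes with an unadjusted p under 0.05 and examples of known role are given with values. Coordinates are RefSeq's on GRCh38. Gene types, overlaps and transcripts are from GENCODE 44, and repeat shares were counted on GRCh37, which is not the authors' build. With 4 libraries, genes of like pattern were not ranked. As alternatives the pseudocount was set to 0.1 and to 5, the filter was dropped or raised to 5 TPM, and the others were median-ratio rescaling, quantile normalization, no mean-dependent prior, a replicate block and leaving out each library.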

Additional observations from a re-analysis of the deposited data

How the results depend on the processing

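Of 94 refits of single members under 12 other settings, 84 kept the direction and 10 reversed, 8 of them with a library left out. The lowest adjusted p of a member in any setting was 0.782. The genes past an adjusted p of 0.05 fell from 1 to 0 with pseudocount 0.1, pseudocount 5, no filter, the filter at 5 TPM, quantile normalization and the replicate block, and were 0 to 1 with a library left out. The number past an unadjusted p of 0.05 and 2-fold was 53, and 96 with pseudocount 0.1, 6 with pseudocount 5, 5 with the filter at 5 TPM and 92 to 120 with a library left out. Of the members 1 passed an unadjusted p of 0.05, 2 without the mean-dependent prior (MALAT1 and NEAT1), and 0 to 1 with a library left out. Their median of 0.03 became 0.041 to 0.17.

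With a library left out, the log2 fold change of LINC00458 ran from -0.354 to 0.252 and reversed to 0.082 and 0.252. That of LINC00678 ran from -0.058 to 0.134 and reversed to -0.0105 and -0.058, that of MIR302CHG ran from -0.137 to 0.196 and reversed to -0.063 and -0.137, and that of TUNAR ran from -0.052 to 0.049. TUNAR reversed to 0.011 with median-ratio rescaling and to 0.016 with quantile normalization, and to 0.035 and 0.049 with a library left out. The cause was not tested. The log2 fold change of NEAT1 was 0.412 with pseudocount 0.1 and 0.101 with pseudocount 5, and that of MALAT1 was 0.750 and 0.444. A lone library was assumed to vary like the other group.

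Whether the replicate numbers pair the libraries is not given in the labels. Over the genes tested, deviations from the group means correlated at -0.05 between libraries with one number. With 2 libraries per group this cannot decide the question. With the replicate block 1 member, MALAT1, passed an unadjusted p of 0.05 (limma, unadjusted p = 0.00414, adjusted p = 0.782). In that fit 63 genes passed it with 2-fold and 0 genes passed an adjusted p of 0.05. CPSF6 then missed the unadjusted threshold (limma, unadjusted p = 0.0523), and CPSF6 and NCL missed it without the mean-dependent prior. With 2 libraries per group and no counts, the widest intervals were those of LINC00458, MALAT1 and NEAT1.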
